A study of Homo sapiens with 2 samples.

Results

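A nucleosome is a stretch of DNA wound around an octamer of histone proteins, and neighbouring nucleosomes are separated by short linkers. Nucleosomes are often found in regular arrays, and sequence helps to place them: GC-rich DNA bends into the wrapped shape readily, while runs of A or T are stiff and tend to lie in linkers. Isolated positions are entries of the nucleosome map with no other entry nearby on either side. A position was counted as isolated where both nearest neighbours lay more than 1500 bp away, and 166529 of 2556623 positions met this rule, or 6.51% (95% Wilson interval 6.48 to 6.54%). They were compared with 611601 paired positions, 23.9% of the total, which had a neighbour 160 to 220 bp away, the spacing of adjacent nucleosomes. No position belonged to both sets.

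ARPE-19 is an established line of human retinal pigment epithelial cells, and the map was made from such cells in normal culture and in interphase. In MNase-seq, micrococcal nuclease digests the linkers and the protected DNA is sequenced, here from fragments of about 150 bp cut from a gel. The samples used here are batch 1 and batch 2, which form 1 group with no treated or control arm. The deposited list holds 2634347 single-base positions for the series, names no sample and gives no height or score, so there is no value per batch and the read depth is unknown. Chromosomes 1-22 were used, without a sparse block of chromosome 15 that starts at 23 Mb and holds 1867 positions. Each comparison below is the difference on each of the 22 chromosomes, given as mean ± SD over chromosomes and tested two-sided by permutation, flipping the signs of the chromosomes' differences. Chromosomes are not biological replicates, so the SD and p-value describe how evenly a difference ran along the genome in this list, not the spread between samples.

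The sequence of a usual member of each set is given as an example. These are the isolated and the paired position whose GC content was nearest to the medians of their sets, chosen after the values were seen among positions between genes or in introns with unique sequence. Each is 300 bp of the plus strand of hg38, and capitals mark the 150 bp around the position. The isolated one, at chr11:22384572-22384871, lies between genes, with neighbours 2858 bp and 4900 bp away. Its GC content is 45.3% in the capitals, 38% in the 150 bp beyond them on each side and 37.3% from 500 to 1000 bp away. Only the nearer 75 bp of the 150 bp on each side are printed, so the 38% cannot be read from the letters. The paired one, at chr19:30098290-30098589, also lies between genes, with neighbours 179 bp and 413 bp away, and has 50%, 46% and 44.4%.
Isolated: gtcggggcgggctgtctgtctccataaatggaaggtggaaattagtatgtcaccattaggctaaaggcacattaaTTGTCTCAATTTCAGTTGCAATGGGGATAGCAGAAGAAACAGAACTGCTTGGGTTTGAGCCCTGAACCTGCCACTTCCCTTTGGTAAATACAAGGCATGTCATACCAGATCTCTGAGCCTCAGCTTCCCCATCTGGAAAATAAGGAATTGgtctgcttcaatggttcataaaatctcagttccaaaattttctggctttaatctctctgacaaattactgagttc
Paired: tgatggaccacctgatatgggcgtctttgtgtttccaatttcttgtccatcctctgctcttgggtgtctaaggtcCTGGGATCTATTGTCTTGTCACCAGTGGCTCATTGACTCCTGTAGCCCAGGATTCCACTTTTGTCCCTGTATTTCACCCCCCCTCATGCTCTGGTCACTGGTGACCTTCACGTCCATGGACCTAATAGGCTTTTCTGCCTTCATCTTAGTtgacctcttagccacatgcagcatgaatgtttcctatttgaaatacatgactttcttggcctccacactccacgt

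The rule used distances, so these are given as a description. The nearest neighbour of an isolated position lay a median of 2067 bp away (quartiles 1728 and 2703 bp) and the further one 3559 bp away (quartiles 2593 and 5119 bp). From neighbour to neighbour the stretch holding a single position had a median length of 5808 bp. Just inside the threshold, with the nearest neighbour 1500 to 1600 bp away, 19807 positions had a GC content of 46.1%, and just outside, at 1400 to 1500 bp, 23232 positions had 46.2%. Isolated positions made up 6.57% ± 2.17 (SD, n = 22 chromosomes) of the positions of a chromosome, from 1.02% on chromosome 15 and 2.81% on chromosome 9 to 9.85% on chromosome 6. The density of all positions was 1.74 positions per kb on chromosome 15, 1.26 on chromosome 9 and 0.765 on chromosome 6. The 2692 windows of 1 Mb held a median of 61 isolated positions (quartiles 44 and 80, highest 127), and 45 windows held none.

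Isolated positions were peaks of GC content in AT-rich surroundings. The 150 bp around them were 46.2% ± 2.25 G or C (SD, n = 22 chromosomes), and those around paired positions 50.3% ± 1.67. The sequence 500 to 1000 bp away had 39.3% ± 3.12 and 45.3% ± 2.46. The difference was -4.13 percentage points ± 1.04 around the position and -5.99 ± 1.24 in the flanks, and both were lower on 22 of 22 chromosomes (permutation p = 1e-05 each, the smallest the draws can give, adjusted 1.56e-05 over 14 comparisons). The smallest gap was on chromosome 19, with 52.4% and 52.8% around the position. Against paired positions of the same 1-Mb windows the differences were -2.46 and -3.31 points, on all 22 chromosomes. The flanks of isolated positions hold no other mapped position by the rule, while those of paired positions may hold some. The part of this in the flank differences was not tested.

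**Figure D1:**
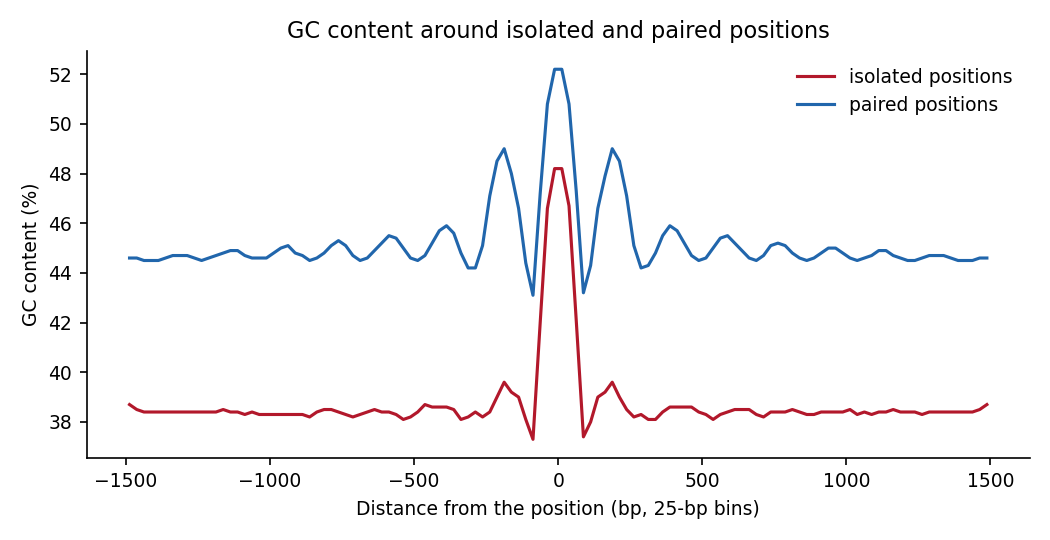
GC content in 25-bp bins by distance from isolated (red) and paired (blue) positions, pooled over chromosomes 1-22. The central peak reached 48.2% for isolated and 52.2% for paired positions, and the isolated curve returned to about 38.4% where the paired one returned to about 44.6%.

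The step from the position to its surroundings was larger at isolated positions. GC content exceeded that of the flanks by 6.94 points ± 0.949 (SD, n = 22 chromosomes) at isolated and 5.08 ± 0.853 at paired positions, a difference of 1.86 ± 0.318 that was above 0 on all 22 chromosomes (sign-flip permutation p = 1e-05 and 1.56e-05 after adjustment). At 35.5% of isolated positions (95% Wilson interval 35.3 to 35.8%) the GC content was at least 10 points above the flanks, against 25% of paired ones (24.9 to 25.1%). The opposite order, a position poorer in GC than its flanks, was found at 16.8% and 23.1%. With paired positions weighted to the same flank GC content the difference turned to -1.38 points, lower on 20 of 22 chromosomes (permutation p = 1e-05). Within 1-Mb windows it was 0.855 points, and with the nearer flank, the 150 bp that begin 75 bp away, 3.32. At paired positions this nearer flank overlaps the 150 bp of a mapped neighbour by the rule, and at isolated positions it does not. The further flank of isolated positions also holds no mapped position by the rule. The part of the rule in these differences of the step was not tested.

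The profile around isolated positions also had side peaks where the map has no entry. GC content fell to 37.3% from 75 to 100 bp away on the lower-coordinate side and rose to 39.6% from 175 to 200 bp on both sides. It was 38.2% in the 25-bp bin that ends 250 bp away on the lower-coordinate side. Paired positions, which by definition have a mapped neighbour near that distance on at least 1 side, had 43.1%, 49.0% and 45.1% in the same bins. The side peaks of isolated positions lay at the same distance as those of paired positions and rose less above the troughs. This profile was not tested.

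**Figure D2:**
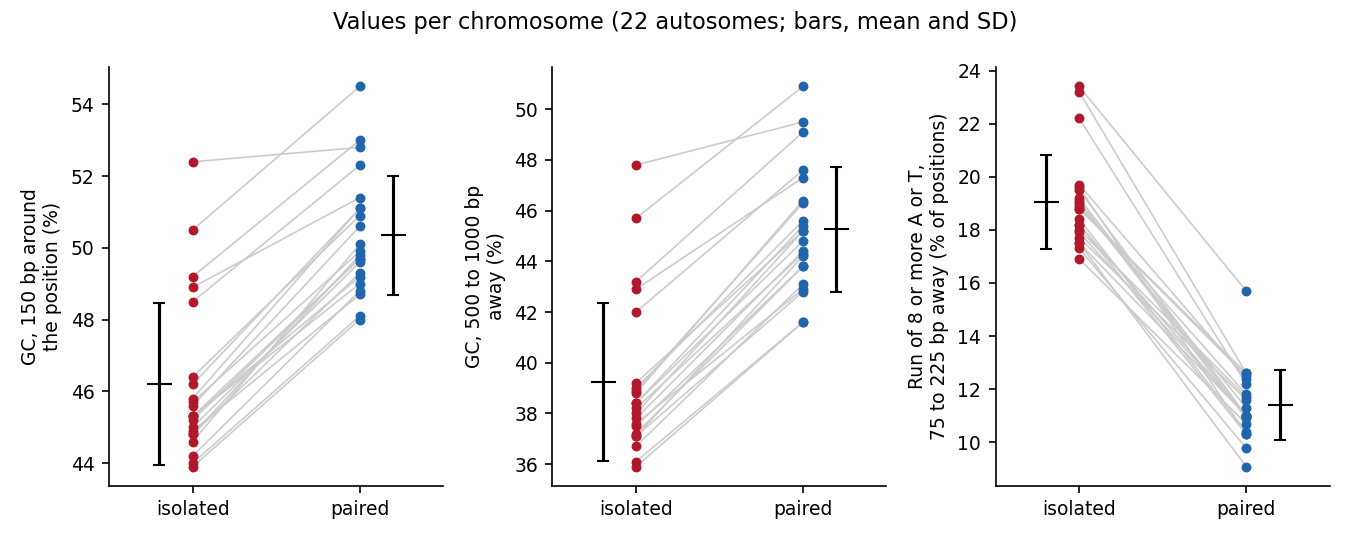
Values of the 22 autosomes for isolated and paired positions: GC content of the 150 bp around the position, GC content 500 to 1000 bp away, and share of positions with a run of at least 8 A or T in the linker region (150 bp that begin 75 bp from the position). Grey lines join a chromosome, and black bars are mean and SD. Every line falls from paired to isolated for GC content and rises for runs.

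Runs of A or T were more frequent beside isolated positions. A run of at least 8 A or at least 8 T lay in the linker region, the 150 bp that begin 75 bp from the position on either side, at 19% ± 1.77 (SD, n = 22 chromosomes) of isolated and 11.4% ± 1.34 of paired positions. The difference of 7.66 percentage points ± 1.23 exceeded 0 on all 22 chromosomes (sign-flip permutation p = 1e-05 and 1.56e-05 after adjustment), and was 5.57 points with paired positions weighted to the same flank GC content. Inside the 150 bp around the position, a shorter window than both linker regions together, such runs were found at 5.39% of isolated and 4.45% of paired positions. The dinucleotides made only of A and T began 23.7% of steps at the isolated position itself and 39.0% of steps 90 bp away. For paired positions the values were 19.4% and 31.2%, with the 90 bp counted towards higher coordinates in both sets. Against paired positions with both neighbours 160 to 220 bp away, which are the inner members of arrays, the difference in runs widened to 11.9 points. By the rule, the linker region of a paired position overlaps the 150 bp of a mapped neighbour on at least 1 side. At the inner members it does so on both sides, and at isolated positions on neither. The part of this in the differences was not tested.

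CpG, the dinucleotide that carries DNA methylation, was slightly less frequent at isolated positions. There were 1.23 CpG per 100 bp ± 0.273 (SD, n = 22 chromosomes) around isolated and 1.36 ± 0.184 around paired positions, a difference of -0.122 ± 0.116, lower on 19 of 22 chromosomes (sign-flip permutation p = 0.00017 and 0.00017 after adjustment). No CpG at all was found in the 150 bp of 30.1% of isolated and 23.6% of paired positions. The direction depended on what was held equal: it was 0.164 per 100 bp, higher on 22 of 22 chromosomes, at equal GC content of the position, 0.0856 at equal flank GC content and 0.0376 within 1-Mb windows. It was -0.203 among positions with unique words and -0.189 against the inner members of arrays.

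Repeated sequence was measured by words of 31 bases, counted on both strands of the hg38 autosomes, X and Y. The word at the position occurred once in the genome at 79.2% ± 3.26 (SD, n = 22 chromosomes) of isolated and 85.4% ± 2.72 of paired positions, lower on 21 of 22 chromosomes (difference -6.20 points ± 3.43, permutation p = 1e-05, adjusted 1.56e-05). All 4 words centred 500 and 1000 bp away were unique at 60.1% ± 7.85 and 65.1% ± 6.18 (difference -5.05 points ± 4.82, lower on 19 of 22, permutation p = 5e-05, adjusted 5.38e-05). With both neighbours more than 3000 bp away these differences were -11.9 and -8.93 points. Words present 100 times or more made up 8.26% at isolated and 5.69% at paired positions. How the authors treated reads that map to several places is not given in the sources used here, and the part of repeats in the isolation was not tested. Among positions with all 5 words unique, the GC difference was -5.31 points around the position and -7.26 in the flanks, each lower on 22 of 22 chromosomes.

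The most isolated positions differed from the rest in this respect. For a nearest neighbour 1500 to 2000 bp away (76524 positions) the word at the position was unique at 81.1%, for 5000 to 10000 bp (4856 positions) at 73.0%, and for the 411 positions more than 10000 bp from any neighbour at 35.8%. Flank GC content, averaged over chromosomes, was 39.7% ± 3.10 (SD, n = 22) at 1500 to 2000 bp, 39% ± 3.12 at 2000 to 3000 bp, 38.5% ± 3.33 at 3000 to 5000 bp and 38.4% ± 3.27 at 5000 to 10000 bp. Beyond 10000 bp it was 40.8% ± 3.93, and the change between ranges was not tested. The 2 positions furthest from a neighbour, among those without an undetermined base (N) within 10 kb, stood 201561 and 172218 bp from it. They are examples, and no pattern is read from the copy numbers of their words. The first lay on chromosome 15 at 21718221, in a gene that is not protein-coding, and its word had 6 copies. The second lay on chromosome 9 at 39355538, 131 bp upstream of the start site of SPATA31A1, a member of a duplicated family expressed in testis, and its word had 3 copies.

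**Figure D3:**
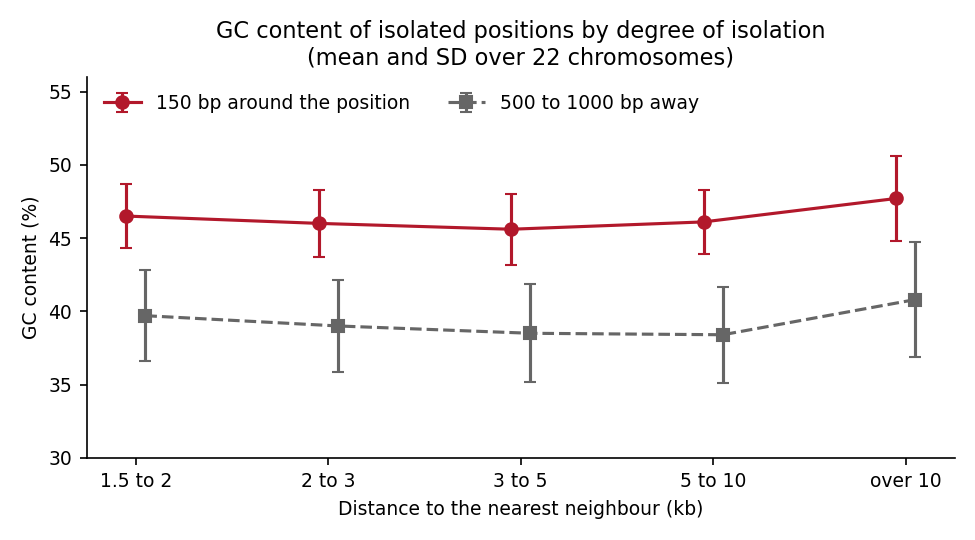
GC content of isolated positions by distance to the nearest neighbour (mean and SD over 22 chromosomes), for the 150 bp around the position (red) and for the sequence 500 to 1000 bp away (grey). Mean flank GC content falls from 39.7% to 38.4% over the first 4 ranges and is 40.8% in the last, which holds 411 positions.

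The annotation of isolated positions was compared with GENCODE 44. Where the map is sparse, neighbours are further away, so the isolated share of a feature depends on its density of positions by the rule itself. Introns of protein-coding genes held 44.3% of isolated positions (95% Wilson interval 44 to 44.5%) and 40.4% of paired ones (40.3 to 40.5%). The log2 ratio of the shares was 0.14 ± 0.12 (SD, n = 22), higher on 20 of 22 chromosomes (sign-flip permutation p = 3e-05 and 3.82e-05 after adjustment). It was 0.0767, higher on 16 of 22, for positions with both neighbours more than 3000 bp away (adjusted permutation p = 0.251), 0.0744 among positions with unique words and 0.315 within 1-Mb windows. Sequence between genes held 34.9% and 39.4%, a log2 ratio of -0.24 ± 0.17, below 0 on all 22 chromosomes (sign-flip permutation p = 1e-05 and 1.56e-05 after adjustment).

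Coding exons and promoters were over-represented among isolated positions. Coding exons held 2802 isolated positions, 1.68% (95% Wilson interval 1.62 to 1.75%), and 1.28% (1.25 to 1.31%) of paired ones. They held 1.39% of all positions, and 7.88% of these 35580 were isolated (7.6 to 8.16%), against 6.51% of all positions. The log2 ratio of isolated to paired shares was 0.47 ± 0.33, above 0 on 20 of 22 chromosomes (sign-flip permutation p = 1e-05 and 1.56e-05 after adjustment). At equal GC content of the position it was 0.935, on 22 of 22, and within 1-Mb windows 0.836. Isolated positions in coding exons outside CpG islands had a GC content of 47.4% on flanks of 39.8%. Promoters, taken as 1000 bp on either side of the start, held 2554 isolated positions, 1.53% (1.48 to 1.59%), and 1.26% (1.23 to 1.29%) of paired ones. They held 1.19% of all positions, and 8.37% of these 30504 were isolated. The log2 ratio was 0.44 ± 0.43, above 0 on 21 of 22 chromosomes (sign-flip permutation p = 1e-05 and 1.56e-05 after adjustment), 0.791 at equal GC content of the position, 0.778 within 1-Mb windows and 1.38 at equal flank GC content. The 3' UTRs held 1.33% and 1.39%, a log2 ratio of -0.01 ± 0.40 (permutation p = 0.945), and genes of other types 16.1% of both sets (permutation p = 0.969). The 5' UTRs held 0.195% and 0.158% (0.16 ± 0.76, permutation p = 0.33). At equal flank GC content the 3' and 5' UTRs stood at 0.522 and 0.622 (adjusted permutation p = 3e-05 and 0.00326). Genes of other types then stood at -0.181, below 0 on 20 of 22 chromosomes (adjusted permutation p = 6.43e-05), and within 1-Mb windows at -0.17, below 0 on 21 of 22 (adjusted permutation p = 1.5e-05).

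**Figure D4:**
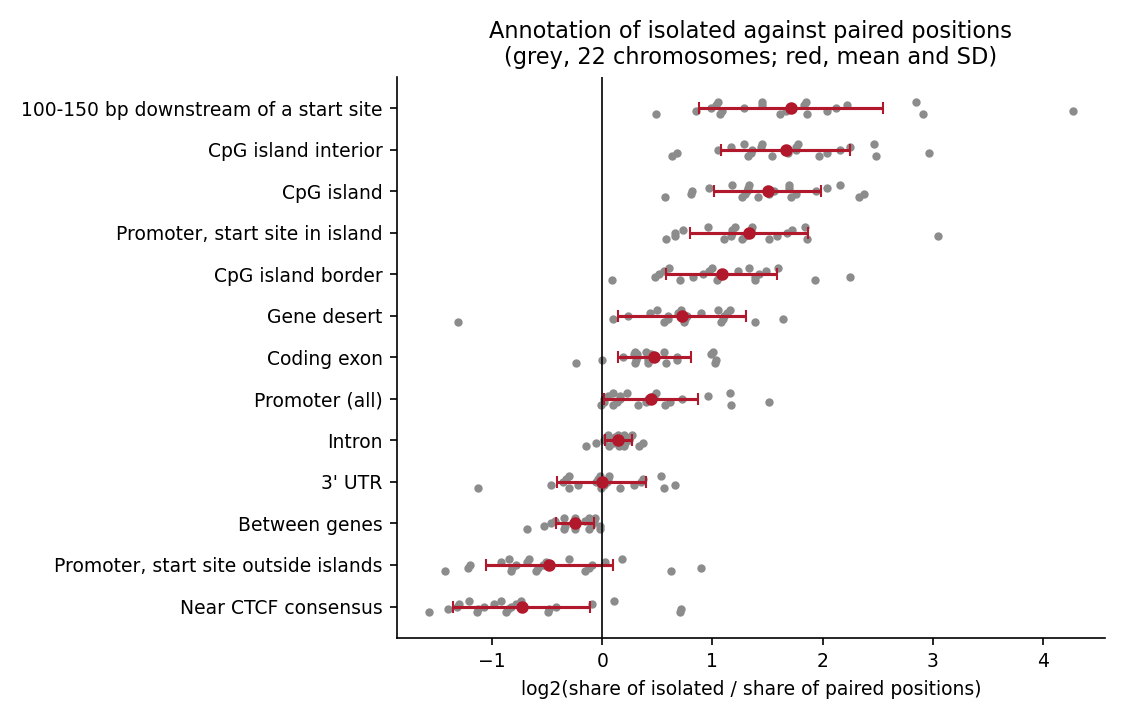
Log2 ratio of the share of isolated to the share of paired positions in each kind of sequence. Grey points are the 22 chromosomes and red symbols mean and SD; the values lie above 0 on 22 of 22 chromosomes for CpG islands and on 3 of 22 near CTCF consensus matches.

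CpG islands, the CpG-rich stretches that hold many promoters and whose border is the subject of the series, had a higher log2 ratio than the other shares among the 14 comparisons. They held 1311 isolated positions, 0.787% (95% Wilson interval 0.746 to 0.831%), and 1825 paired ones, 0.298% (0.285 to 0.312%). The log2 ratio was 1.50 ± 0.49 (SD, n = 22), above 0 on 22 of 22 chromosomes (sign-flip permutation p = 1e-05 and 1.56e-05 after adjustment). It was 2.31 against the inner members of arrays and 2.70 at equal flank GC content, and at lowest, with a limit of 1000 bp, 1.34. Of all 10090 positions in islands 13.0% were isolated (12.4 to 13.7%), against 6.51% of all positions.

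Parts of the islands were compared after the data were seen, in a further 9 comparisons with their own adjustment. Island interiors, more than 200 bp inside the edge, held 0.501% of isolated and 0.173% of paired positions (log2 ratio 1.66 ± 0.58), and borders, 200 bp either side of the edge, 0.633% and 0.326% (1.09 ± 0.50). Both ratios were above 0 on 22 of 22 chromosomes (permutation p = 1e-05 each, adjusted 2.25e-05). At equal flank GC content they were 2.77 and 2.54. The difference between interior and border was not tested. Shores, from 200 to 2000 bp outside, held 2.29% of isolated, 2.84% of paired and 2.33% of all positions. Of all positions in shores 6.4% were isolated (Wilson interval 6.21 to 6.6%), an interval that holds the 6.51% of the whole map. The isolated share was thus close to that of all positions, and the paired share was above it. The log2 ratio was -0.22 ± 0.32, lower on 18 of 22 (permutation p = 0.00549, adjusted 0.00823). It turned to 0.971, higher on 22 of 22, at equal flank GC content.

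Promoters divided by whether the start site lies in an island. Those in islands held 1666 isolated positions, 1.00%, and 0.443% of paired ones, against 0.525% of all positions. Of all positions in these promoters 12.4% were isolated, against 6.51% of the whole map. The log2 ratio was 1.33 ± 0.53, above 0 on 22 of 22 chromosomes (sign-flip permutation p = 1e-05 and 2.25e-05 after adjustment). It was 2.69 at equal flank GC content. Promoters outside islands held 888 isolated positions, 0.533%, and 0.814% of paired ones, against 0.668% of all positions. Of all positions in them 5.2% were isolated (Wilson interval 4.87 to 5.54%), against 6.51% of the whole map. The isolated share thus lay below that of all positions and the paired share above it, and both enter the ratio. The log2 ratio was -0.48 ± 0.58, below 0 on 18 of 22 (sign-flip permutation p = 0.00121 and 0.00218 after adjustment). The last direction was not stable: it was -0.0541 (permutation p = 0.697) at equal GC content of the position, -0.136 (permutation p = 0.337) within 1-Mb windows and 0.249 at equal flank GC content. The density of all positions within 1000 bp of a start site was 0.677 per kb in islands and 1.13 per kb outside them. Isolated promoter positions inside an island had a GC content of 67.4% ± 7.83 (SD over 952 positions) on flanks of 54.7% ± 8.15, and those outside an island 52.4% ± 8.91 on 50.3% ± 9.52 (SD over 1602 positions).

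The first nucleosome downstream of a start site is a known landmark of promoters, where it borders the gap left for the transcription machinery. Around 11055 start sites in islands, isolated positions were densest in the 25-bp bin that ends 150 bp downstream, at 0.525 per kb against 0.311 per kb for paired positions. Paired positions had a further maximum in the 75 bp that end 350 bp downstream, at 0.247 per kb, where isolated ones stood at 0.0615. By the rule, a position there cannot be isolated if 1 is mapped at the first maximum, so this contrast partly follows from the sets. Of all 562 positions in that window 9.07% were isolated (95% Wilson interval 6.97 to 11.7%). Of all 1422 positions 100 to 150 bp downstream of island start sites, 254 were isolated, or 17.9% (95% Wilson interval 16.0 to 19.9%), against 12.4% of all positions within 1000 bp of these sites. From 175 to 300 bp upstream the share was 14.7% (13.1 to 16.6%), an interval that overlaps the one downstream. Outside islands, 100 of 1065 were isolated, or 9.39% (7.78 to 11.3%), against 5.3% within 1000 bp. From -100 to 50 bp of island start sites 19 isolated and 27 paired positions were found, of 172 in all. The isolated share there was 11% (95% Wilson interval 7.19 to 16.6%), an interval that holds the 12.4% within 1000 bp. Over all start sites, the window 100 to 150 bp downstream held 0.204% of isolated and 0.0661% of paired positions (log2 ratio 1.71 ± 0.84, above 0 on 22 of 22 chromosomes, permutation p = 1e-05, adjusted 2.25e-05). That window was chosen from the profile.

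**Figure D5:**
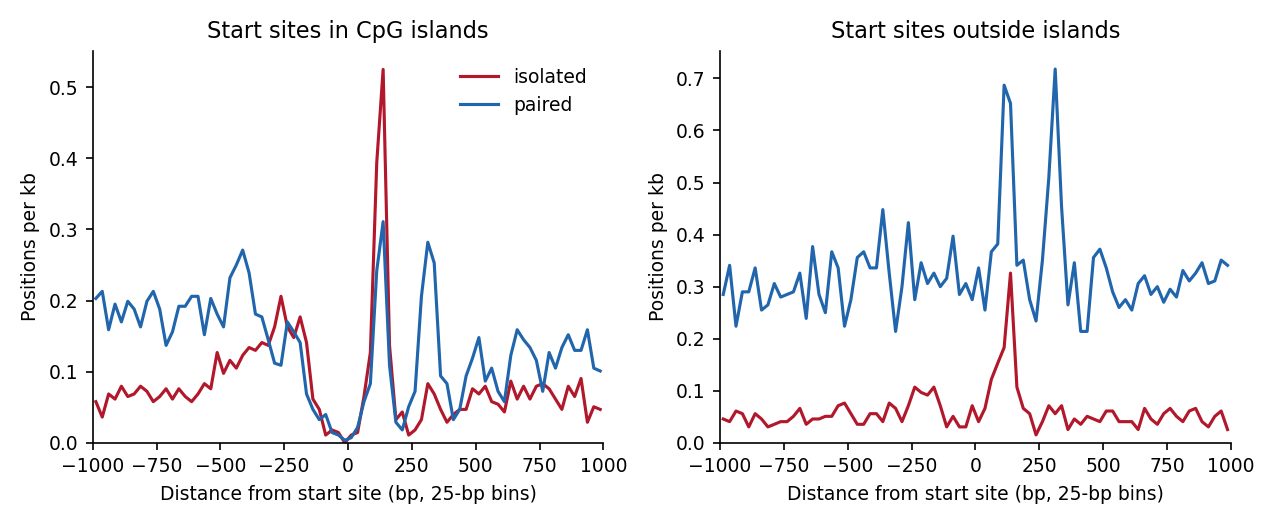
Isolated (red) and paired (blue) positions per kb in 25-bp bins around 11055 start sites in CpG islands (left) and 7855 outside them (right), both axes linear with different scales. Isolated positions peak 100 to 150 bp downstream in both panels, while paired positions also peak there and again near 300 bp, where those outside islands are densest.

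Genes with a single mapped nucleosome just downstream of the start site were named by the distance to the nearest neighbour, within 50 to 250 bp of the site. In the 5 leading genes it was 7123 to 7552 bp, and all 5 start sites lay in islands. MRPS16, which encodes a protein of the small mitochondrial ribosomal subunit, had its position at chromosome 10, 73252570, 74 bp downstream of the start site, with 64% GC on flanks of 49.2%. THAP9, which encodes a protein related to transposases, had it at chromosome 4, 82900888, 153 bp downstream, with neighbours 7745 and 7492 bp away and 74% GC on flanks of 40.3%. The position also lies in SEC31A. WASHC1, which encodes a subunit of the WASH complex, had it on chromosome 9 at 29326, 130 bp downstream, but its word had 6 copies in the genome, so its placement is uncertain. ZSWIM8, which encodes a substrate receptor of a ubiquitin ligase, had it on chromosome 10 at 73785704, 98 bp downstream. ZNF75A, a zinc finger gene, had it on chromosome 16 at 3305598, 101 bp downstream, where TIGD7 also lies. The 150 bp of THAP9 are shown as an example of such a CpG-rich position, with the 17 CpG in capitals, plus strand of hg38, chr4:82900813-82900962.
THAP9 downstream position: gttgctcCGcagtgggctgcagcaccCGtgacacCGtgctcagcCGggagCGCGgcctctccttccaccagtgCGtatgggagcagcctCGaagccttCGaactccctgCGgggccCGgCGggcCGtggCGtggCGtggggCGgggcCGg

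Positions were also named by the steepest rise of GC content over the flanks. This ranking favours GC-rich sequence, so no pattern is read from the GC or CpG content of the leading positions. Among positions with all 5 words unique, the first lay 93 bp downstream of the start site of AKAP7, which encodes an anchoring protein of protein kinase A (chromosome 6, 131135560), with 82% GC on flanks of 38.4%. The third lay in the 3' UTR of NKX6-1, a homeobox transcription factor (chromosome 4, 84493233), with 81.3% on 41.5%. The second lay between genes on chromosome 2 at 38528202, 74726 bp from the nearest protein-coding start site, with 78.7% on 38.7%, and was in no island of the definition used. Its 150 bp, chr2:38528127-38528276, hold 22 CpG (capitals). A stretch of equal length from its lower-coordinate flank, chr2:38527552-38527701, has 34.7% GC, and both are shown on the plus strand to make the step visible.
Position on chromosome 2: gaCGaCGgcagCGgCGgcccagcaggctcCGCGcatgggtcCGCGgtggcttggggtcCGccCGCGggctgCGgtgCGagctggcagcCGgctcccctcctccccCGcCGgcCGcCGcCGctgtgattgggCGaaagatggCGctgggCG
Flank of it: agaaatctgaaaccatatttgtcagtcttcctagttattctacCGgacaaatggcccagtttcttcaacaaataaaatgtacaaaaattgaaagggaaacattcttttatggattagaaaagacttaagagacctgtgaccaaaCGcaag

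CTCF is a protein that binds a long motif and beside which nucleosomes form arrays. Within 200 bp of a match to its consensus, which is not a measured binding site, lay 307 isolated positions, 0.184% (95% Wilson interval 0.165 to 0.206%), and 0.313% (0.299 to 0.327%) of paired ones. The log2 ratio was -0.73 ± 0.62, below 0 on 19 of 22 chromosomes (sign-flip permutation p = 5e-05 and 5.38e-05 after adjustment). Relative to all positions, 4.25% (3.80 to 4.73%) of the positions near a match were isolated, against 6.51% overall. From 120 to 200 bp from the match, the place of the flanking nucleosome, lay 223 isolated and 1316 paired positions of 5147 in all, and within 60 bp 53 and 373 of 1249. Isolated positions made up 4.33% and 4.24% of these windows, 3.53% from 60 to 120 bp and 3.87% from 200 to 280 bp. From 280 to 400 bp, where 1731 of 3778 positions were paired, they made up 2.65%. The change with distance from the match was not tested. The log2 ratio was -0.153 (adjusted permutation p = 0.264) at equal flank GC content, -0.475 within 1-Mb windows, -0.481 at equal GC content of the position and 0.108 (adjusted permutation p = 0.509) against paired positions with both neighbours 160 to 220 bp away.

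Gene deserts, stretches over 1 Mb without a protein-coding gene, held 23.5% of isolated positions (95% Wilson interval 23.2 to 23.7%) and 13.0% of paired ones (12.9 to 13.1%). The log2 ratio was 0.72 ± 0.58, higher on 21 of 22 chromosomes, with chromosome 19 at -1.31 (sign-flip permutation p = 3e-05 and 3.82e-05 after adjustment). Isolated positions in deserts had 43.3% GC on flanks of 35.1%, and those elsewhere 46.3% on 39.3%. At equal flank GC content the ratio was 0.0137 (adjusted permutation p = 0.932), at equal GC content of the position 0.406, and within 1-Mb windows, which are no longer than a desert, -0.0328.

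Outside chromosome 8, which was left out of the naming of genes, very long genes held the largest numbers of isolated positions. The leading 5 were DLG2, which encodes a scaffold protein of synapses, with 210 of 1422 positions isolated (14.8%), EYS, which encodes a protein of photoreceptors, with 199 of 847 (23.5%), MACROD2, which encodes an ADP-ribose hydrolase, with 197 of 1015 (19.4%), ROBO2, which encodes an axon guidance receptor, with 196 of 890 (22%), and CTNNA3, which encodes an alpha-catenin, with 188 of 989 (19%). These genes run from 1743270 to 2173324 bp in length and had 0.426 to 0.654 positions per kb. They were chosen for their number of isolated positions, so their isolated shares cannot be set against the 6.51% of the whole map. At least 1 isolated position lay in 11939 of 18409 protein-coding genes considered, or 64.9%. In 697 genes the body held a single position in all, and in 386 of these it was isolated. Such a position has no neighbour within the body by selection, so its share cannot be set against the 6.51%. Both counts depend on gene length and on the number of positions, and neither was compared with a background.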

How the data were processed

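ARPE-19 cells in interphase were profiled by MNase-seq in 2 samples (batches 1 and 2). The authors deposited 1 list of 1-bp positions for the series, whose other unit is genome coordinates. Bowtie2 and hg38 are named in the submitters' processing notes. The caller, fragment filter, threshold and pooling of batches are not given in the sources used here, and neither is the depth. Repeated rows were dropped, neighbours found on each chromosome, and positions with no neighbour on one side left out of the members. Sequence and annotation came from hg38 and GENCODE 44, taking the start of the MANE Select transcript, else the canonical one. Islands were found with a score of +17 for a CpG and -1 otherwise (over 500 bp, at least 55% GC, observed to expected CpG over 0.65). They numbered 17238. The CTCF consensus was searched on both strands.

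Differences were tested by sign flips over 22 chromosomes (100000 draws) with Benjamini-Hochberg adjustment over 14 comparisons, and over 9 added after seeing the data. Steps were tested on simulated data. The software was pandas 2.3.3, numba 0.67.0, scipy 1.17.1, numpy 2.4.6 and Python 3.11.15. The members, lists and comparisons were chosen with earlier results of these data known. Named positions are the 3 furthest from a neighbour, the 5 furthest from one 50 to 250 bp downstream of a start site, the 3 with the highest GC over flanks, and the 5 genes with most members, leaving out chromosome 8. Sequences overlapping a UTR were not printed. One position that the rule names is not reported here. Wilson intervals cover counting error only. The alternatives changed the isolation distance, merged positions closer than 100 bp, left out positions near N, chromosomes 9 and 15 or repeated words, and changed windows or the paired set.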

Additional observations from a re-analysis of the deposited data

Results flagged for a closer look

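Positions outside the comparisons also met the isolation rule or stood in the list. On chromosome X 14009 of 74465 positions had both neighbours more than 1500 bp away, or 18.8%. In the part of chromosome 15 left out 1219 of 1867 positions did, or 65.3%. A further 1388 positions lay on 12 sequences other than chromosomes 1-22 and X. They are listed because the comparisons did not use them, and any count above 0 would have been listed.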

How the results depend on the processing

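Over 14 planned comparisons, 9 added ones and the number of isolated positions, 233 alternative values were computed. Of these 18 reversed, 6 no longer passed, 6 newly passed, 2 counts moved by over 1.5 times and the rest gave the same call. With limits of 1000 and 3000 bp there were 331475 and 30450 isolated positions. At 3000 bp the intron ratio fell to 0.0767 and no longer passed, shores, at -0.259, no longer passed, and 3' UTRs stood at 0.0682 and other genes at 0.0728. Other genes were at 0.000611 with merged positions and 0.00271 without chromosomes 9 and 15. Against paired positions with both neighbours 160 to 220 bp away, CTCF matches turned to 0.108 and other genes to 0.0836. Within 1-Mb windows, CpG turned to 0.0376 per 100 bp, deserts to -0.0328, shores to 0.364 and 3' UTRs to 0.513, promoters outside islands, at -0.136, no longer passed, and 5' UTRs, at 0.432, and other genes, at -0.17, newly passed. At equal GC content of the position, CpG turned to 0.164, shores to 0.215 and 3' UTRs to 0.237, promoters outside islands, at -0.0541, no longer passed, and 5' UTRs, at 0.503, and other genes, at -0.0837, newly passed. At equal flank GC content, the step of GC content turned to -1.38 points, CpG to 0.0856, shores to 0.971, promoters outside islands to 0.249 and 3' UTRs to 0.522, while CTCF matches, at -0.153, and deserts, at 0.0137, no longer passed, and 5' UTRs, at 0.622, and other genes, at -0.181, newly passed. The cause was not tested. GC content of the position and of the flanks, runs of A or T, islands, island promoters and coding exons kept their direction in every alternative run. No paired analysis was possible because the list names no batch, and no batch could be left out.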
